A study of Bos taurus with 22 samples.

Results

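The replicative helicase unwinds DNA ahead of the polymerases, and 9 of its genes and of a loading factor were followed in circulating white blood cells of 22 heifers: MCM2, MCM3, MCM4, MCM5, MCM6, MCM7, CDC6, GINS1 and GINS2. They are the genes of a list of 10 that had a symbol in the shortened gene annotation supplied with the study, matched by Ensembl identifier to the deposited counts of 27607 genes. The remaining gene, CDC45, had no such row and was not analysed here. That annotation holds 1401 genes in order of their p for fertility, so the choice of the 9 genes used the Fertile against Sub-Fertile difference. That difference is given below as a description with no test. In the model fitted here the largest p of the 9 belonged to GINS2, with a log2 difference of 0.31, and outside the table CDC45 has no value to set beside it.

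The study compared heifers that did and did not conceive readily, in a beef and a dairy breed, with blood drawn when each heifer was first inseminated. All were purebred: 12 Angus, averaging 14 months and with estrus synchronized by a 7-day protocol with a progesterone insert (CIDR), and 10 Holstein, averaging 12 months and synchronized by a 5-day CIDR protocol. Fertile heifers (5 Angus, 5 Holstein) calved from the first insemination, 7 Angus Sub-Fertile heifers did not conceive after repeated insemination and a bull, and 5 Holstein Sub-Fertile heifers needed at least 4 inseminations or never conceived. Breed, age and synchronization protocol therefore cannot be told apart. Each heifer gave 1 library and keeps her number from the labels, 1 to 5 for Holstein Sub-Fertile, 6 to 10 for Holstein Fertile, 11 to 17 for Angus Sub-Fertile and 18 to 22 for Angus Fertile.

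Before a cell copies its DNA, the origin recognition complex with CDC6 and CDT1 places rings of MCM2 to MCM7 on the DNA, a step called licensing. At the start of S phase CDC45 and the GINS complex join each ring and switch it on as the CMG helicase. These genes are transcribed mainly in cells that enter or pass through the cell cycle. Most circulating leukocytes are resting or terminally differentiated, and the cycling ones are a minority of activated lymphocytes and plasmablasts. In a bulk sample, fewer cells of a type and less RNA per cell cannot be told apart.

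Total counts per heifer ranged from 12182400 to 49228035, and 13535 genes passed the filter on low counts, all 9 genes of the helicase group among them. The labelled cell type could be checked only in part, because few marker genes had a symbol here. Those with one were 3 of 8 neutrophil, 1 of 7 B cell, 2 of 5 plasma cell, 2 of 5 platelet and 2 of 5 eosinophil and basophil markers. Of the listed markers, none had a symbol for T cells, monocytes, natural killer cells, red cell precursors or myeloid precursors. The named ones were all detected, with summed neutrophil markers between 118 and 650 CPM (the count of a gene scaled to a fixed library total) in the 20 heifers other than 10 and 18. Some libraries resembled each other far more than the rest. Across 7746 genes, 8 pairs of heifers had a biological coefficient of variation of 0.0377 to 0.0828, against 0.0981 to 0.261 (median 0.174) in the other 223 pairings. Of these close pairs, 4 joined an Angus and a Holstein heifer, 6 joined heifers of unlike fertility, and 0 lay within a group. Heifers 10 and 18 were one of them. Pairs of this kind mean that the 22 libraries may not be independent, so p-values that take them as such may be too small or, where a pair spans the groups compared, too large. Those of the correlations, where a pair counts as separate animals, may be too small. The reason for the resemblance was not tested.

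The 9 genes lay on 9 chromosomes of the ARS-UCD1.2 assembly, each annotated as protein-coding. Those of the ring were MCM2 (ENSBTAG00000014380, chromosome 22, 59896021 to 59912780), MCM3 (ENSBTAG00000010721, chromosome 23, 24694544 to 24712140), MCM4 (ENSBTAG00000017021, chromosome 14, 19551601 to 19563221), MCM5 (ENSBTAG00000015595, chromosome 5, 73633313 to 73651860), MCM6 (ENSBTAG00000015172, chromosome 2, 61489617 to 61524285) and MCM7 (ENSBTAG00000030965, chromosome 25, 36349409 to 36356836). The loader CDC6 (ENSBTAG00000010384) was at chromosome 19, 40524612 to 40546357. The activating subunits GINS1 (ENSBTAG00000019984) and GINS2 (ENSBTAG00000044006) were at chromosome 13, 53589805 to 53606654, and chromosome 18, 11648869 to 11684545. In the RefSeq annotation of ARS-UCD2.0, which serves here only for names of neighbours, MCM7 hosts MIR106B, MIR93 and MIR25, and GINS1 overlaps PCMTD2 and a transfer RNA gene. No source at hand states the strand setting of the counting, so reads of GINS1 and an overlapping gene may be mixed.

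Per kilobase of transcript, the ring subunits were the most abundant of the group. Median levels over 22 heifers were 68.0 CPM per kb for MCM7, 38.6 for MCM3, 36.9 for MCM5, 33.8 for MCM6, 21.7 for MCM4 and 21.4 for MCM2. GINS2 reached 9.62, GINS1 6.55 and CDC6 5.30 CPM per kb. MCM7 was above MCM3, MCM6 above MCM4, MCM2 above GINS2 and GINS2 above GINS1 in 22 of 22 heifers. The order of GINS2 and GINS1 rests on the transcript length, since in CPM their medians were 11.5 and 22.9. Neighbours that changed places were MCM3 and MCM5 (MCM3 higher in 13 of 22), MCM5 and MCM6 (18 of 22), MCM4 and MCM2 (10 of 22) and GINS1 and CDC6 (19 of 22).

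One feature ran through the whole group. Heifers 10 (Holstein Fertile) and 18 (Angus Fertile) held the 2 highest levels of all 22 heifers for 9 of 9 genes, while the other 20 heifers overlapped across all 4 groups. Of the 13535 genes tested, 889 (6.57%) had these 2 heifers on top. Both heifers are Fertile and the genes were chosen by the fertility difference, so nothing is read from the 9 of 9 against that share. The values of each gene follow, in CPM and with heifers in the order of their numbers.

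**Figure D1:**
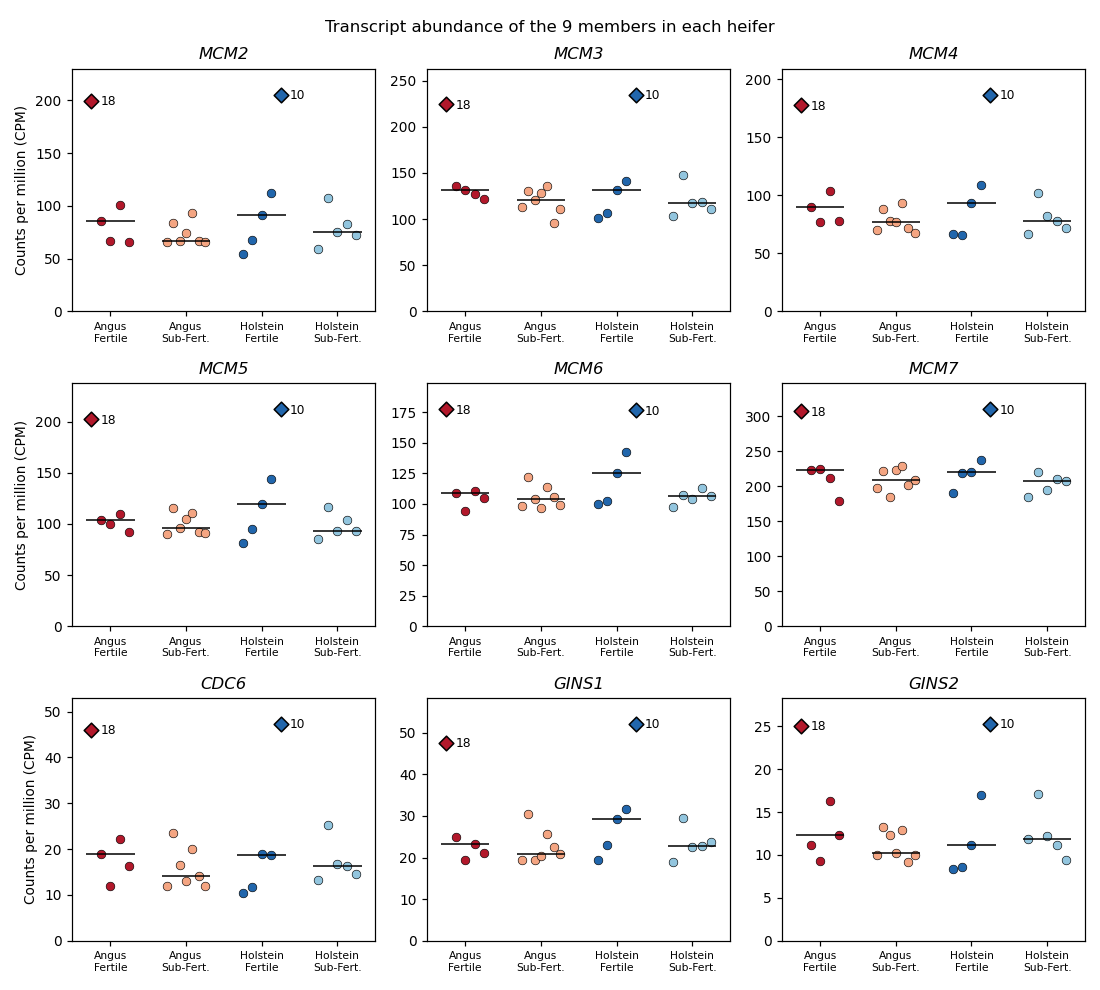
Transcript abundance of the 9 genes in CPM (vertical axes, linear from 0) in each of 22 heifers by group (horizontal axes), with 1 point per heifer, a line at the group median and diamonds for heifers 10 and 18. In every panel the diamonds lie above all other points, and the ranges of the remaining heifers overlap between groups.

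MCM2, a ring subunit that also binds histones, measured 199.7, 85.5, 66.8, 101 and 66.1 CPM in Angus Fertile heifers and 65.4 to 93.3 (median 66.7) in their Sub-Fertile counterparts. The Holstein Fertile values were 54.3, 67.8, 91.8, 112 and 205 CPM, and the Holstein Sub-Fertile values 59.3, 108, 74.8, 82.9 and 72.2. Heifers 18 and 10 stood at 2.62 and 2.57 times the median of the other heifers of their groups. The next highest heifer, 9, had 112 CPM, and Fertile and Sub-Fertile values overlapped in both breeds.

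MCM3, another ring subunit, measured 224, 136, 131, 127 and 121 CPM in Angus Fertile heifers, 95.5 to 136 (median 121) in Angus Sub-Fertile ones, 101, 107, 132, 142 and 235 in Holstein Fertile heifers and 104, 148, 118, 118 and 111 in Holstein Sub-Fertile heifers. Apart from heifers 10 and 18, the highest value belonged to a Sub-Fertile animal, heifer 2. The excess of heifers 18 and 10 over the median of the others in their groups was 1.74-fold and 1.97-fold.

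MCM4 is part of the MCM4-MCM6-MCM7 core that has helicase activity on its own in biochemical assays. Its levels were 178, 89.7, 77.4, 104 and 77.8 CPM in Angus Fertile, 67.3 to 93.8 (median 76.6) in Angus Sub-Fertile, 66.3, 66.2, 93.1, 109 and 187 in Holstein Fertile and 67.02, 102, 81.8, 77.7 and 71.7 in Holstein Sub-Fertile heifers. Heifers 18 and 10 were 2.12 and 2.34 times the median of the others of their groups. Heifers 9, 21 and 2, from 3 different groups, came next.

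MCM5, which with MCM2 forms the gate of the ring, measured 202, 104, 99.6, 110.2 and 92.6 CPM in Angus Fertile heifers and 90.4 to 115 (median 95.99) in the Sub-Fertile Angus. It measured 80.9, 95.3, 119, 144 and 212 CPM in Holstein Fertile heifers and 85.02, 116, 92.7, 104 and 92.8 in Holstein Sub-Fertile heifers. The folds over the other heifers of the group were 1.99 for heifer 18 and 1.98 for heifer 10. The 4 Angus Fertile heifers other than 18 lay within the Angus Sub-Fertile range.

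MCM6 and MCM7 varied least. MCM6 measured 178, 109, 94.7, 110.3 and 105.0 CPM in Angus Fertile, 96.8 to 122 (median 104) in Angus Sub-Fertile, 99.6, 102, 126, 143 and 177 in Holstein Fertile and 97.5, 107, 104, 113 and 107 in Holstein Sub-Fertile heifers. MCM7, the most abundant of the 9 genes, measured 308, 224, 225, 212 and 179 CPM in Angus Fertile, 185 to 229 (median 209.5) in Angus Sub-Fertile, 191, 219, 220.3, 237 and 310.3 in Holstein Fertile and 185, 221, 194, 210.0 and 208 in Holstein Sub-Fertile heifers. Heifers 18 and 10 exceeded the median of the others of their groups 1.66-fold and 1.55-fold for MCM6, and 1.41-fold and 1.41-fold for MCM7. These were the smallest excesses of the 9 genes, although both heifers still ranked above every other animal.

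The 6 ring transcripts summed to 1290 CPM in heifer 18 and 1326 CPM in heifer 10. Among the other 20 heifers the highest sum was 886 CPM, in heifer 9. Group medians were 747 CPM in Angus Fertile, 650 in Angus Sub-Fertile, 782 in Holstein Fertile and 666 in Holstein Sub-Fertile heifers, and the ranges of the 4 groups overlapped.

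CDC6, the ATPase that loads the ring at origins, had the widest range of the group, 4.54-fold from the lowest to the highest heifer. It measured 46.1, 18.9, 11.9, 22.2 and 16.4 CPM in Angus Fertile and 11.97 to 23.6 (median 14.2) in Sub-Fertile Angus heifers. It measured 10.4, 11.8, 19.03, 18.8 and 47.4 CPM in Holstein Fertile and 13.3, 25.3, 16.7, 16.2 and 14.5 in Holstein Sub-Fertile heifers. Heifers 18 and 10 were 2.61 and 3.10 times the median of the others in their groups, and the next highest level, 25.3 CPM, was in the Sub-Fertile heifer 2. The lowest of all, 10.4 CPM, was in a Fertile animal, heifer 6.

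GINS1 and GINS2 encode subunits of the GINS tetramer that bridges the ring and CDC45. GINS1 measured 47.6, 24.97, 19.4, 23.1 and 21.2 CPM in Angus Fertile, 19.3 to 30.5 (median 20.9) in Angus Sub-Fertile, 19.3, 23.1, 29.3, 31.7 and 52.2 in Holstein Fertile and 18.96, 29.6, 22.5, 22.8 and 23.8 in Holstein Sub-Fertile heifers. GINS2 measured 25.1, 11.2, 9.28, 16.3 and 12.3 CPM in Angus Fertile, 9.12 to 13.2 (median 10.2) in Angus Sub-Fertile, 8.38, 8.63, 11.2, 17.02 and 25.3 in Holstein Fertile and 11.8, 17.1, 12.2, 11.2 and 9.40 in Holstein Sub-Fertile heifers. Heifers 18 and 10 exceeded the others of their groups 2.15-fold and 1.99-fold for GINS1, and 2.13-fold and 2.56-fold for GINS2. For both genes the Fertile and Sub-Fertile heifers overlapped in each breed. GINS2 had the lowest counts of the 9 genes, with 107 in heifer 7 (8.63 CPM, 95% interval 7.15 to 10.4), whereas the highest count, 11828, was MCM7 in heifer 10. The interval covers counting error only.

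**Figure D2:**
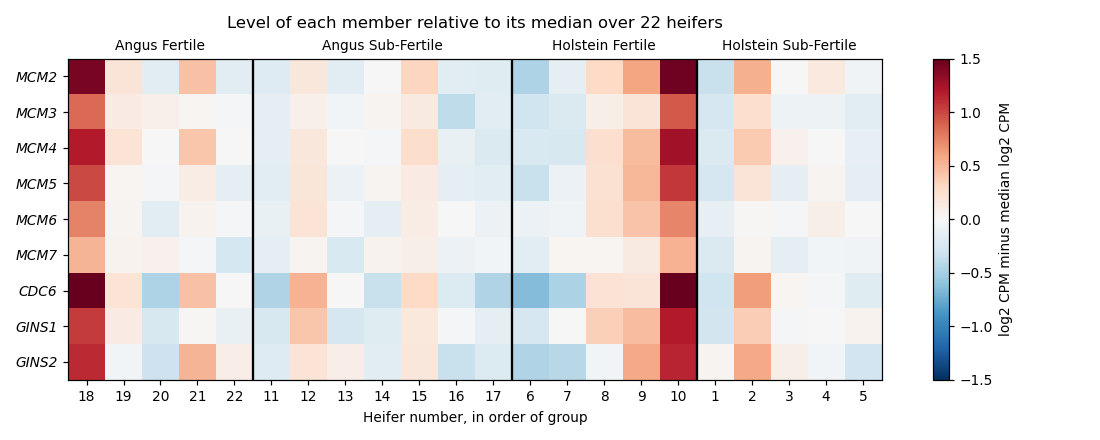
Level of each of the 9 genes (vertical axis) in each heifer (horizontal axis, by group) as log2 CPM minus the gene's median over 22 heifers, with red above and blue below the median. The columns of heifers 10 and 18 are red from top to bottom, and heifers 9 and 2 are paler red for several genes.

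The question of the study was whether transcript abundance differs with fertility. For the 9 genes this difference is a description, since it chose them. On the log2 scale, Fertile over Sub-Fertile with breed in the model, it was 0.46 (0.204) for MCM2, 0.29 (0.128) for MCM3, 0.41 (0.163) for MCM4, 0.34 (0.144) for MCM5, 0.23 (0.101) for MCM6, 0.17 (0.0813) for MCM7, 0.44 (0.246) for CDC6, 0.33 (0.163) for GINS1 and 0.31 (0.186) for GINS2, each with its SE. The median over the 9 genes was 0.33, with 9 of 9 above 0, while 49% of all genes tested were above 0. Of all 13535 genes, 0 passed an adjusted p of 0.05 in edgeR's quasi-likelihood test (lowest adjusted p 0.9998), and 354 (2.62%) had an unadjusted p under 0.05. Groups of Fertile and Sub-Fertile heifers overlapped for 9 of 9 genes within each breed. Across all genes, groups did not overlap for 1.35% in Holstein and 0.0887% in Angus.

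These differences rested on heifers 10 and 18. Without both, the median over the 9 genes was 0.062, and the values ran from -0.027 (SE 0.167) for CDC6 to 0.11 (SE 0.100) for MCM4. Leaving out heifer 18 alone gave a median of 0.19, and leaving out heifer 10 alone gave 0.21. In the breeds taken one at a time the median was 0.33 in Holstein (range 0.20 to 0.42) and 0.31 in Angus (0.13 to 0.53), and each breed holds 1 of these heifers. When each close pair was fitted as a block, the median was -0.058 and 1 of 9 genes, MCM3, stayed above 0. The block fit compares heifers only within pairs, so a heifer outside the pairs adds nothing to its fertility value. Its comparison of Fertile with Sub-Fertile heifers rests on the 6 pairs that join them. Heifers 10 and 18, both Fertile, hold no fertility difference within their pair.

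Between Fertile and Sub-Fertile heifers some markers of blood cell types differed in level too, which is a description because their symbols come from the same table. On the log2 scale the neutrophil markers CSF3R, MMP9 and TGM3 were at -0.43 (SE 0.184), -0.74 (SE 0.368) and -0.98 (SE 0.453), Fertile over Sub-Fertile. Without heifers 10 and 18 they were at -0.42, -0.54 and -0.91. The platelet markers ITGA2B and GP9 were at 0.28 (SE 0.122) and 0.63 (SE 0.318), with a median of 0.45, and 0.35 without those heifers. The plasma cell markers had a median of 0.29, and 0.097 without those heifers. BANK1, of B cells, was at -0.16 (SE 0.0993). Of the eosinophil and basophil markers, CCR3 was at 0.32 (SE 0.180) and FCER1A at -0.28 (SE 0.159). MMP9 and GP9 had low levels, with medians of 1.90 and 2.11 CPM. The part of these cell types in the fertility difference of the helicase genes was not tested.

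**Figure D3:**
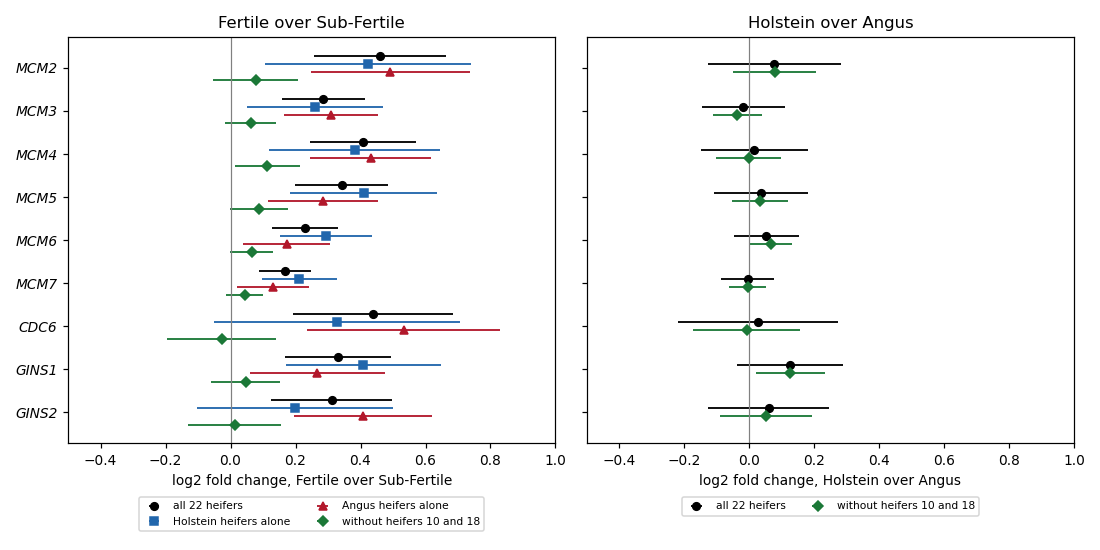
Log2 fold changes of the 9 genes (vertical axis) with bars of 1 SE derived from the edgeR test, for Fertile over Sub-Fertile heifers (left) and Holstein over Angus heifers (right), by the heifers fitted. Without heifers 10 and 18 the fertility values shrink to between -0.027 and 0.11, and the breed values lie near 0 in both fits.

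Between breeds, which did not enter the choice of genes, the helicase group showed no difference that passed the test. Holstein over Angus log2 fold changes ran from -0.018 for MCM3 to 0.13 for GINS1, with 7 of 9 above 0 (45.9% of all genes) and adjusted p from 0.794 to 0.989 in edgeR over all genes. None of the 9 genes (0 of 9) had an unadjusted p under 0.05, a threshold that 10.6% of all genes met. The 95% intervals, from a normal approximation, were narrow for MCM7, -0.16 to 0.16. They were wide for CDC6, -0.46 to 0.51, a span that holds sizeable differences in either direction. For MCM2 the interval was -0.32 to 0.48, and for GINS2 -0.30 to 0.43. Over all genes, edgeR called 0 for breed at an adjusted p of 0.05 (1440 at an unadjusted p under 0.05) and DESeq2 called 10. The sign of these small differences turned with single animals: without heifer 18 all 9 genes were above 0, and without heifer 10 as many as 8 of 9 were below 0.

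Whether the fertility difference depended on breed was tested as an interaction. The log2 interaction ran from -0.21 for GINS2 to 0.14 for GINS1, with 4 of 9 above 0 (47.1% of all genes) and adjusted p from 0.835 to 0.967 in edgeR, and 0 of 9 genes had an unadjusted p under 0.05 (10.4% of all genes). Standard errors of 0.166 (MCM7) to 0.506 (CDC6) leave wide intervals, such as -1.20 to 0.79 for CDC6. Over all genes edgeR called 0 interactions at an adjusted p of 0.05 and 1408 at an unadjusted p under 0.05. Without heifer 10 all 9 interactions were below 0, and without heifer 18 all 9 were above 0. Without both, they ran from -0.32 to 0.17 and 4 of 9 were above 0.

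Among heifers of the same group, CDC6 and MCM2 varied most, and MCM6 and MCM7 least. The SD of log2 CPM within groups was 0.58 for CDC6, 0.50 for MCM2, 0.44 for GINS2, 0.40 for MCM4, 0.39 for GINS1, 0.35 for MCM5, 0.31 for MCM3, 0.24 for MCM6 and 0.20 for MCM7. The median of all genes tested was 0.21, and 5.20% of genes exceeded CDC6. Without heifers 10 and 18, the SD was 0.38 for CDC6, 0.31 for MCM2 and 0.12 for MCM7, and 83.5% of genes then varied more than MCM7.

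The 9 genes rose and fell together from heifer to heifer. With levels centred within the 4 groups, Pearson's r over 22 heifers had a median of 0.931 across the 36 pairs of genes, from 0.719 for MCM7 and GINS2 to 0.984 for MCM2 and MCM4. Spearman's rho had a median of 0.842. All 36 pairs passed a permutation test within groups (100000 resamples, two-sided, Benjamini-Hochberg over 36 pairs), with adjusted p up to 0.00601 for r and 0.0248 for rho. The largest unadjusted p for r was 0.00601, for MCM7 and GINS2, in the same permutation test. Heifers 10 and 18 were the 2 farthest from the median in all 36 relations. The genes were chosen by a fertility difference that rests on these heifers, and centring within groups leaves their excess in place. That choice favours correlation over 22 heifers, so nothing is read from these p-values.

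Without these 2 heifers the correlations were lower but stayed above 0 in all 36 pairs. Over 20 heifers the median r was 0.812, from 0.295 for MCM7 and GINS2 to 0.955 for MCM2 and MCM4, and 33 of 36 pairs had an adjusted p under 0.05 in the permutation test. The 3 that did not were those of MCM7 with MCM6, CDC6 and GINS2, with adjusted p of 0.0729, 0.0898 and 0.273 in that test. With rho, 34 of 36 passed. The other close pairs remain among these 20 heifers and count as separate animals, so these p-values may be too small. When the heifers of each close pair were averaged, an alternative chosen after seeing the data, the median r over 14 pairs and single heifers was 0.910, and 0.784 over 13 without heifers 10 and 18. These 2 values are descriptions, with no p and no centring by group.

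**Figure D4:**
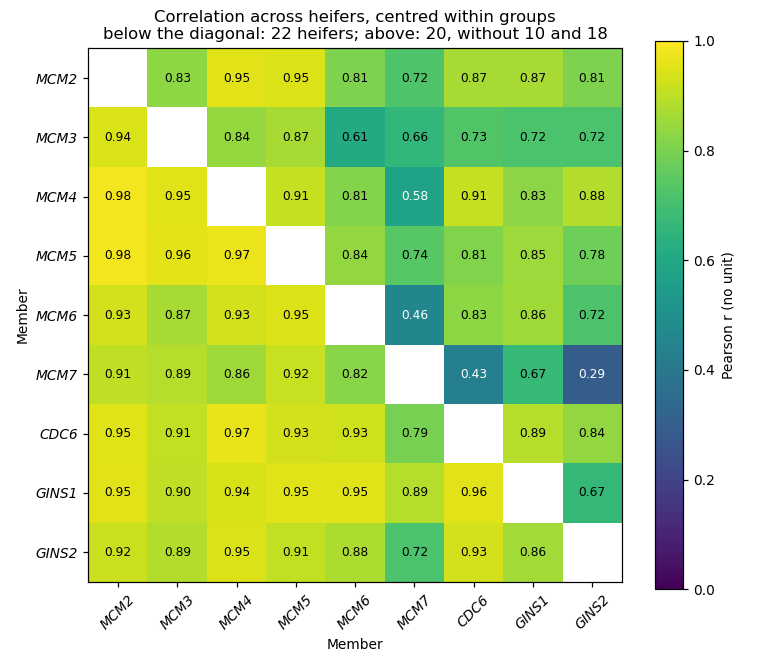
Pearson's r between each pair of the 9 genes across heifers, from log2 CPM centred within groups, over 22 heifers below the diagonal and over 20 heifers (without 10 and 18) above it. MCM2, MCM4 and MCM5 keep an r of at least 0.91 with each other above the diagonal, and the row and column of MCM7 hold the lowest values.

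The close pairs were alike in the helicase genes too. Within the 8 pairs, the median absolute log2 difference over the 9 genes ran from 0.0114 to 0.157, with a median of 0.0640. In the other 223 pairings it ran from 0.0127 to 1.41, with a median of 0.256, so the ranges overlapped. Heifers 10 and 18, of different breeds, differed by 0.0399. Of the 6 pairs that join a Fertile with a Sub-Fertile animal, heifers 8 and 12 differed by 0.0587 and heifers 14 and 20 by 0.0624. MCM2 to MCM7 and GINS1 were among the genes that defined the pairs, and CDC6 and GINS2, with a mean CPM under 20, were not, so the closeness in the helicase genes is a description.

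**Figure D5:**
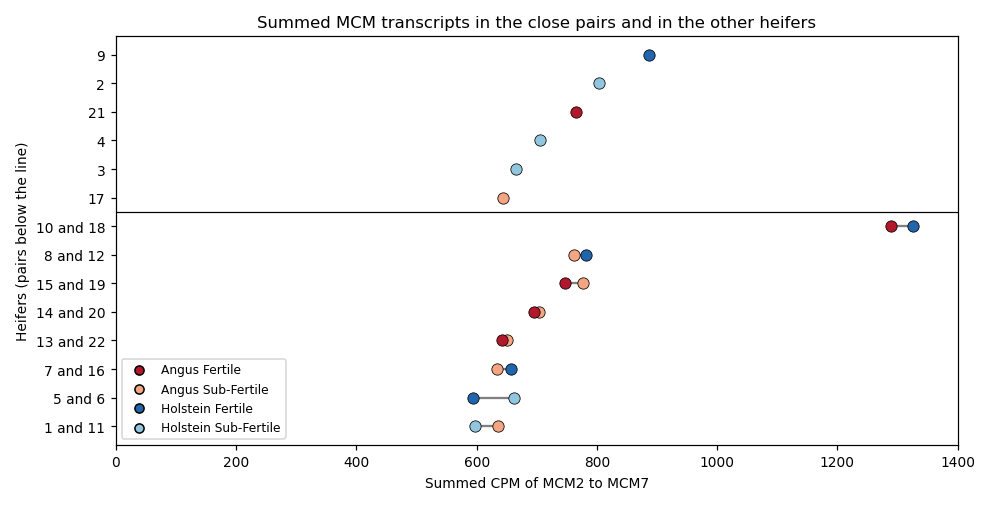
Summed CPM of MCM2 to MCM7 (horizontal axis, from 0) for the 2 heifers of each of 8 close pairs (below the line) and for the 6 other heifers (above it), coloured by group. Heifers 10 and 18 lie at 1326 and 1290 CPM, and all other heifers at 886 CPM or less.

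Other steps of DNA replication were read from gene lists, of which only genes with a symbol here could be named, and those symbols come from the same table ordered by the fertility p. Among licensing genes that are not in the group, 4 were named. ORC1, the largest origin recognition subunit, was at 74.9 and 70.6 CPM in heifers 10 and 18 against 14.8 to 39.5 in the other 20. CDT1, the partner of CDC6, was at 47.6 and 43.4 CPM against 11.8 to 26.4, and its inhibitor GMNN at 45.1 and 47.6 CPM against 16.6 to 33.6. ORC6 was the exception, at 44.2 and 40.8 CPM against 27.5 to 41.6 in the others, with heifer 18 below another animal. So 3 of the 4 had heifers 10 and 18 as the 2 highest, as had 6.57% of all genes tested. Both heifers are Fertile and the symbols come from an order by the fertility p. Here and in the lists below, nothing is therefore read from such counts against that share.

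Of the genes that act in helicase activation, 6 were named, and 6 of 6 had heifers 10 and 18 on top. GINS3 and GINS4, which complete the GINS tetramer, were at 20.1 and 19.1 CPM against 8.97 to 17.3, and at 12.7 and 14.0 CPM against 5.53 to 9.76. MCM10, which helps the assembled helicase start, was at 48.4 and 44.8 CPM against 12.0 to 27.6. DBF4B, a regulatory partner of the CDC7 kinase, was at 8.60 and 7.62 CPM against 3.55 to 6.95. The 2 remaining genes were RECQL4 and TICRR. None of the named genes of these lists passed the adjusted test for breed.

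Further along the fork, 12 of 13 named genes had the same 2 heifers on top. PCNA, the sliding clamp, was at 190 and 196 CPM against 91.6 to 152 in the others. Those with the smallest breed p were POLE4, DNA2, PCLAF and RFC4. POLE4, a small subunit of polymerase epsilon, was the exception, with 46.5 and 51.1 CPM against 38.9 to 59.4, and its breed difference of -0.14 (SE 0.0573) had an unadjusted p of 0.0206 and an adjusted p of 0.437 in edgeR. Of the G1/S regulators, 4 of 6 followed the pattern, among them E2F1 and E2F8. E2F5 and the inhibitor of cyclin-dependent kinases CDKN1B did not, with CDKN1B at 171 and 145 CPM against 129 to 215. Fertility differences over these lists had medians of 0.36 (licensing), 0.36 (activation), 0.27 (fork) and 0.28 (G1/S), and 0.073, 0.087, 0.061 and 0.064 without heifers 10 and 18.

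Markers of proliferation, named from the same annotation, had the same 2 heifers highest in 8 of 8 genes. Nothing is read from this count against the 6.57% of all genes. MKI67, a protein of cycling cells, was at 971 and 895 CPM against 230 to 470, and TOP2A, CCNA2 and CCNB1 were likewise highest there. Centred within groups, MKI67 correlated with the 9 helicase genes at r 0.733 to 0.957 (median 0.918) and rho 0.588 to 0.877. In the permutation test 9 of 9 relations passed, with adjusted p up to 0.00861. MKI67 and the 9 genes were all named from the order by the fertility p, and heifers 10 and 18 are both Fertile. That choice favours correlation while these heifers are included, so nothing is read from these p-values. Without heifers 10 and 18, r was 0.263 to 0.885 and 8 of 9 passed, MCM7 being the exception with an adjusted p of 0.343 in the permutation test. The other close pairs remain in that test, so its p-values may be too small. Log2 total counts correlated with the 9 genes at a median r of 0.130, and 0 of 9 relations passed the permutation test (lowest adjusted p 0.769).

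The 10 genes outside the group whose levels most resembled it over 22 heifers, by their mean r with the 9 genes, were CHAF1A (0.942), TRIP13 (0.936), EZH2 (0.935), CDCA3 (0.934), AURKB (0.933), CCNB2 (0.932), CDT1 (0.930), ASF1B (0.930), CDC25A (0.929) and RAD54L (0.929). Over the 20 heifers without 10 and 18 the 10 most alike began with EZH2 (0.850), PSAT1 (0.844) and CHAF1A (0.841), and 4 of 10 were in both lists. CHAF1A and ASF1B are histone chaperones that act behind the fork, and EZH2 is a histone methyltransferase.

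Markers of other blood cells moved with the helicase genes in part. The named plasma cell markers, MZB1 and XBP1, summed to 318 CPM in heifer 10 and 337 CPM in heifer 18, against 140 to 267 CPM in the other 20 heifers, and ranged from 181 to 337 in Angus Fertile, 151 to 258 in Angus Sub-Fertile, 140 to 318 in Holstein Fertile and 157 to 253 in Holstein Sub-Fertile heifers. MZB1 alone was at 136 and 143 CPM against 36.9 to 123. The summed level of MZB1 and XBP1 correlated with the 9 genes at r 0.636 to 0.886. In the permutation test over 45 relations 9 of 9 passed, with adjusted p up to 0.0292, or 7 of 9 with rho. These markers and the 9 genes were named from the order by the fertility p, and heifers 10 and 18 are both Fertile. That choice favours correlation while these heifers are included, so nothing is read from these p-values. Without heifers 10 and 18, 1 of 9 passed, that of CDC6 (r 0.818, adjusted p 0.00225 in the permutation test). With the other close pairs still counted as separate animals, this p may be too small.

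BANK1, the named B cell marker, was lowest in heifers 10 and 18, at 238 and 245 CPM against 265 to 512. Its r with the 9 genes was -0.382 to -0.316 over 22 heifers and 0.288 to 0.620 without those heifers, with 0 of 9 passing the permutation test in either case (adjusted p 0.323 to 0.348 and 0.120 to 0.389). Neutrophil markers ranked 14 and 17 of 22 in heifers 10 and 18, and their r with the 9 genes was -0.284 to -0.143, with 0 of 9 passing. Without those heifers it was -0.551 to -0.221, farther from 0, and again 0 of 9 passed. Platelet markers, of which ITGA2B and GP9 were named, ranked 3 and 4 in heifers 10 and 18, and 0 of 9 relations passed. The eosinophil and basophil markers summed to 73.0 and 73.4 CPM in heifers 10 and 18 against 31.3 to 69.3 in the others, with CCR3 the 2 highest there and FCER1A ranked 21 and 20. Their relation passed with 1 of 9 genes, MCM7, and with 0 of 9 without those heifers. CCR3 and FCER1A too were named from the order by the fertility p, so nothing is read from the relation that passed. The part of these cell types in the levels of the helicase genes was not tested.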

How the data were processed

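The deposited values were raw counts per Ensembl gene with no normalization. The authors aligned reads from a stranded mRNA kit to ARS-UCD1.2 with hisat2, filtered alignments with Samtools, marked and dropped duplicates with biobambam2, and obtained fragment counts from featureCounts. No source at hand states tool versions or the strand setting. The labels gave each heifer's breed and fertility group. The columns of the supplementary gene table that hold the authors' own comparisons were not used.

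CPM were counts over total counts. Genes reaching more than 1 CPM after TMM scaling in 5 or more heifers were tested in edgeR 4.0.16 (R 4.3.3) by the quasi-likelihood test with robust estimation, terms for breed and fertility, total counts as library sizes and Benjamini-Hochberg adjustment. A second model added the interaction. DESeq2 1.42.0 served as an alternative. Correlations used log2(CPM + 0.5) and 100000 permutations within groups (scipy 1.17.1, numpy 2.4.6, Python 3.11.15). Close pairs were mutual nearest neighbours among heifers in biological coefficient of variation over genes with a mean CPM above 20, at under 0.5 of the median of all pairings. Levels per kb used the transcript length in the annotation supplied with the study, which also gave symbols and coordinates. The authors' code keeps the longest transcript of each gene for that length.

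The named genes are the 9 helicase genes, CDC45, GINS3, GINS4, CDT1, MCM10, MKI67, up to 4 genes of each pathway list by breed p and the 10 most alike genes. Other genes (PCNA, RECQL4, TICRR, PSAT1 and the marker genes) were named after their values were seen. The genes, lists and alternatives were chosen with earlier results of these data known.

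The edgeR test was checked on simulated counts of 13535 genes with independent heifers. It recovered 28%, 90%, 96% and 100% of genes changed 1.2-, 1.5-, 2- and 4-fold for fertility, 34%, 86%, 96% and 100% for breed, and 0%, 22%, 76% and 96% for the interaction. False calls numbered 7 for fertility, 12 for breed and 1 for the interaction. The changed genes were drawn above a minimum mean CPM, and the simulation held no close pairs. These rates are therefore not the power of the comparisons made here.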

Additional observations from a re-analysis of the deposited data

Results flagged for a closer look

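Within a group of 5 or 7 heifers, the highest or lowest animal was set against the others by its gap to the nearest animal as a share of the group's range, in 36 combinations of the 9 genes and 4 groups. In 8 of them the gap exceeded Dixon's critical value at the 95% level, which chance exceeds in about 5% of groups. The 9 genes are correlated and were chosen by a fertility difference that rests on heifers 10 and 18, so nothing is read from 8 of 36 against that share.

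Heifer 18 stood apart from the other Angus Fertile heifers for 6 genes. The gap was 0.861 of the range for MCM3, 0.840 for MCM5, 0.811 for MCM6, 0.803 for GINS1, 0.738 for MCM2 and 0.734 for MCM4. Heifer 10 stood apart from the other Holstein Fertile heifers for CDC6, with a gap of 0.767. Heifer 2 stood above the other Holstein Sub-Fertile heifers for CDC6, with a gap of 0.713, at 25.3 CPM against 13.3 to 16.7 CPM in the others. What sets these animals apart was not tested.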

How the results depend on the processing

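No paired analysis was possible because the labels number the heifers 1 to 22 and no number is shared between groups. The blocks below are the close pairs found in the data, which the labels do not give. Of 1042 recomputed values, 955 kept their direction and their side of the threshold or stayed within a set distance of the reported value. For the fertility difference of a gene, that distance was its SD within groups, from 0.20 for MCM7 to 0.58 for CDC6. MCM2 counted as within it although its difference went from 0.46 to 0.077 without heifers 10 and 18. For these differences the 955 therefore does not show that their size held. Of the remaining values, 70 changed sign and 17 moved without a change of sign. Those that changed sign included 38 breed differences, 22 interactions and 9 fertility differences of single genes. Without heifers 10 and 18, the median fertility difference of the 9 genes was 0.062 on the log2 scale, CDC6 turned to -0.027, the breed difference turned to -0.0013 for MCM4 and -0.0077 for CDC6, and the median correlation was 0.812 (0.846 without the 2 heifers farthest in each relation). With close pairs as blocks, the median fertility difference was -0.058, with -0.11 for MCM2, -0.036 for MCM4, -0.070 for MCM5, -0.033 for MCM6, -0.018 for MCM7, -0.19 for CDC6, -0.058 for GINS1 and -0.15 for GINS2. In that fit the breed difference was 0.025 for MCM3, 0.015 for MCM7 and -0.00087 for CDC6, and the interaction was 0.016 for MCM3, 0.0082 for MCM4, -0.028 for MCM6 and -0.11 for GINS1. Blocks gave 1 interaction over all genes at an adjusted p under 0.05, against 0. For breed, DESeq2 called 10 genes against 0, and MCM7 turned to 0.0048 with TMM factors and 0.0053 in DESeq2.

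Unadjusted fertility p-values under 0.05 numbered 354, and 750 with no filter on low counts, 125 without heifers 10 and 18 and 639 with blocks. For breed they numbered 1440, and 233 with blocks. For the interaction they numbered 1408, and 2343 without heifers 10 and 18 and 936 with blocks.

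Leaving out 1 heifer at a time gave a median fertility difference of 0.19 to 0.38, a median correlation of 0.899 to 0.936, and unadjusted counts of 142 (without heifer 10) to 580 (without heifer 22) for fertility, 1021 to 2191 for breed and 959 to 2014 for the interaction. The breed difference ran from -0.085 to 0.24 for MCM2, -0.12 to 0.070 for MCM3, -0.12 to 0.14 for MCM4, -0.076 to 0.14 for MCM5, -0.011 to 0.13 for MCM6, -0.058 to 0.049 for MCM7, -0.19 to 0.21 for CDC6 and -0.071 to 0.19 for GINS2. The interaction ran from -0.45 to 0.31 for MCM2, -0.30 to 0.15 for MCM3, -0.37 to 0.22 for MCM4, -0.12 to 0.39 for MCM5, -0.017 to 0.31 for MCM6, -0.039 to 0.21 for MCM7, -0.73 to 0.21 for CDC6, -0.13 to 0.44 for GINS1 and -0.54 to 0.064 for GINS2. The lower end of each of these gene ranges came without heifer 10 and the upper end without heifer 18. The cause of these shifts was not tested. Each of the 9 genes had at least 107 counts in every heifer. For GINS2, counting error was not small beside the spread within a group. In Angus Sub-Fertile heifers GINS2 ran from 9.12 to 13.2 CPM, and heifer 16 alone had a 95% counting interval of 7.63 to 10.9 CPM.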
